A study of Homo sapiens with 8 samples.

Results

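Genes of the hypoxia response and of glycolysis were followed in MDA-MB-231 cells with and without a hairpin against the integrin α3 subunit. The set holds 42 genes named by their role: 6 subunits and sensors of the hypoxia-inducible factor (HIF), 13 HIF targets outside glycolysis, 3 transporters of glucose and lactate, 3 regulators of glycolytic flux and 17 glycolytic enzymes. A gene was read from the rows of the value tables that are annotated to it alone. Of the 42 genes, 35 had such a row at the gene level, where the arrays hold 22011 transcript clusters, and 33 of these 35 were bright enough to be tested. The gene-level clusters of CA12 and TPI1 fell under the filter on dim features. The remaining 7 genes (EGLN1, CA9, ANKRD37, SLC2A3, SLC16A3, GAPDH and PGAM1) were read only at the exon level, where all 42 genes had probesets, 711 in the table and 633 above the same filter.

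MDA-MB-231 is a cell line from a human triple-negative breast carcinoma, with mesenchymal features. All cells carried a stably integrated lentiviral short hairpin RNA (shRNA), a control shRNA in one group and an α3-targeting shRNA in the other, and were grown on plastic in medium with serum. RNA from 2 cultures of each group, described as biological replicates, was hybridised to 4 Affymetrix Human Exon 1.0 ST arrays, and each array was summarised at the gene level and again at the exon level, which gives the 8 samples. The labels give both groups the same growth conditions, name no rescue of α3 and do not say how many hairpins were tried, and the effect of losing α3 and any further effect of the hairpin or of the transduced populations cannot be told apart.

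HIF is a pair of proteins, an oxygen-regulated α subunit (HIF-1α, encoded by HIF1A, or HIF-2α, encoded by EPAS1) and the constant partner ARNT. In the presence of oxygen, prolyl hydroxylases of the EGLN family mark the α subunit, the VHL ubiquitin ligase binds the mark, and the protein is degraded, so that the α subunits are controlled largely at the protein level, which arrays do not measure. When oxygen is short, HIF binds short DNA motifs near its target genes and raises glucose uptake, glycolysis, lactate export and the diversion of pyruvate from mitochondria, programmes that many breast cancer cells also run in oxygen.

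Values are PLIER intensities, a linear summary of probe brightness, and differences are knockdown minus control on the log2(intensity + 16) scale, ± standard error, with n = 2 arrays per group. Calls are limma adjusted p under 0.05, with the adjustment over all features tested. With 2 arrays against 2, an exact permutation test of 1 gene cannot give a p below 0.333, so every call leans on the spread shared across genes. Over all clusters the median intensity of the 4 arrays ran from 168 to 186 and was lower in both knockdown arrays. ITGA3, the target of the hairpin, read 3480 and 3529 in control arrays and 619 and 644 in knockdown arrays (log2 difference -2.44 ± 0.073, adjusted p = 8.04e-05). The 7 listed mesenchymal or basal genes of the line were all above the filter, with VIM at 4347 to 5241. EGFR was called higher (log2 difference 0.66 ± 0.078, adjusted p = 0.00449) and AXL lower (-0.52 ± 0.072, adjusted p = 0.00691), and the summed intensity of the 7 was 26026 and 27022 in control arrays and 24075 and 23954 in knockdown arrays. Of 10 luminal and epithelial genes, 7 were tested, 1 was higher (KRT18) and 2 were lower (KRT19 and ERBB2), and their summed intensity ranged from 13470 to 13682 in the controls and from 12743 to 13701 in the knockdown arrays. CDH1, encoding E-cadherin, lay under the filter and read 25.4 and 28.8 in control arrays and 177 and 168 in knockdown arrays, while the hormone receptor genes ESR1 and PGR stayed under the filter. The 5 endothelial markers were all under the filter, 1 fibroblast and 2 leukocyte markers were tested without passing, and the leukocyte antigen PTPRC read 25.1 to 27.4. Arrays of whole cultures cannot tell fewer cells of a kind from less RNA per cell, and the part of these marker differences in the results was not tested.

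Of the 33 genes tested at the gene level, 11 were higher in the knockdown, 6 were lower and 16 did not pass. Over all 13207 clusters tested, 5.99% were called higher and 15.3% lower, beside 33.3% and 18.2% of the 33 genes, so the share called lower was near that of all clusters and the share called higher was not. The genes called higher were NDRG1, BNIP3 and KDM3A among the HIF targets, EGLN3 and VHL among the oxygen sensors, the flux regulators PDK1 and PFKFB3, and the enzymes HK1, HK2, ALDOC and PGK1. The genes called lower were EPAS1, the HIF targets DDIT4, BHLHE40, ADM and ERO1A, and the phosphofructokinase PFKL. The median log2 difference was 0.02 over the 33 genes and -0.06 over all clusters tested. Control and knockdown arrays did not overlap for 27 of the 33 genes, against 61.8% of all clusters, and for all 17 called genes. The direction of calls across the array depended on the scaling, with 791 clusters higher and 2016 lower on the deposited scale, 1354 and 1679 once quantile-normalized, and 1586 and 1457 once centred on array medians. Quantile normalization left 11 of the 33 genes higher and 5 lower, and median centring left 11 and 3. Calls were lost with any 1 array left out, and most of the 17 were lost without knockdown 1 or without knockdown 2. A fit without 1 array has 1 residual degree of freedom, so a call can be lost with little change in size. The log2 difference of PFKL was -0.46 without knockdown 1 and -0.49 without knockdown 2, beside -0.47 with all arrays. That of ALDOC moved more, to 0.60 and 0.40, beside 0.50.

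**Figure D1:**
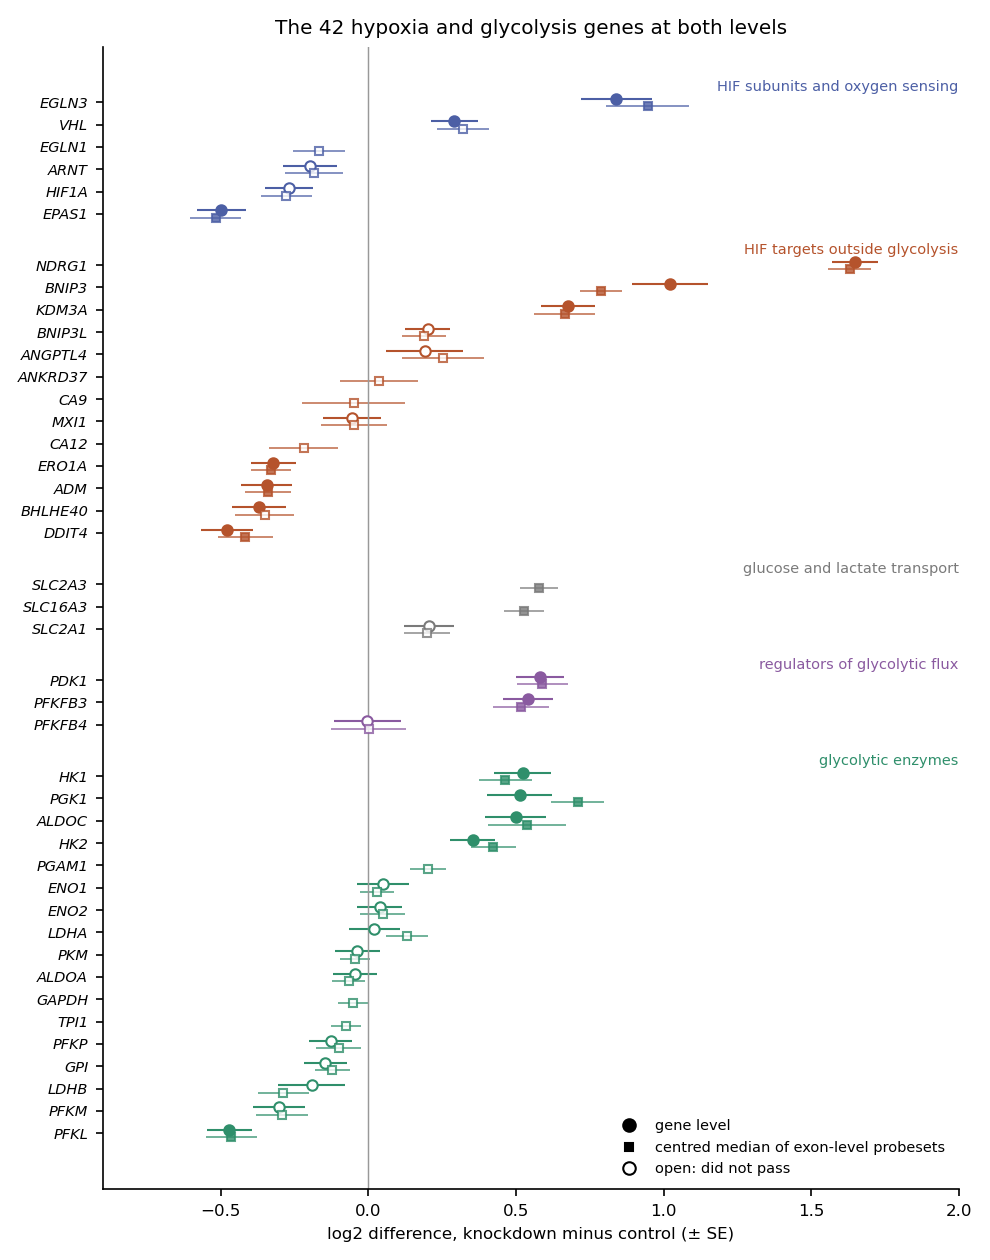
Log2 difference (knockdown minus control, ± SE, n = 2 arrays per group) of each of the 42 genes, by role, at the gene level (circles) and as the centred median of its exon-level probesets (squares), with filled symbols for adjusted p under 0.05. Flux regulators and transporters lie at or above 0, and the other HIF targets spread from -0.48 (DDIT4) to 1.65 (NDRG1) at the gene level. Most glycolytic enzymes lie near 0, with PFKL at -0.47 and HK1 at 0.52 at the gene level and PGK1 at 0.71 on its centred median.

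The promoters of 7 of these genes are shown because they carry the core letters of the hypoxia response element in genes that were called higher (BNIP3, PGK1, HK2 and PDK1), called lower (DDIT4 and BHLHE40) and did not pass (LDHA). Each is the 250 bases before the annotated transcription start on the gene's own strand, 5′ to 3′, from RefSeq on GRCh38.p14, with ACGTG and GCGTG on either strand in capitals, so that CACGT and CACGC are the same motifs read on the other strand. HK2, PDK1 and LDHA have 2 annotated windows each, and the one with more matches to ACGTG is shown, the other windows of PDK1 and LDHA holding no ACGTG.
BNIP3 (chr10:131981924-131982173, minus strand): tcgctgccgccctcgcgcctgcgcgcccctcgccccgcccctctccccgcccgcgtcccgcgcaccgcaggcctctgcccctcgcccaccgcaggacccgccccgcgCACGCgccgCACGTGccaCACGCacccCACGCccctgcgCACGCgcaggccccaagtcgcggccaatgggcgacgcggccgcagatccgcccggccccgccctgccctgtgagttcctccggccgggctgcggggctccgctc
PGK1 (chrX:78103998-78104247, plus strand): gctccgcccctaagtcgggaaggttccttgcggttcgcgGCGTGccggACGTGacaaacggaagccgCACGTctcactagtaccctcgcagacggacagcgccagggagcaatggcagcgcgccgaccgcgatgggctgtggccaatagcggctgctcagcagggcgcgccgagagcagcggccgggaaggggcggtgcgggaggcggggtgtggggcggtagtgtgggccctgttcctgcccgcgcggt
HK2 (chr2:74834920-74835169, plus strand): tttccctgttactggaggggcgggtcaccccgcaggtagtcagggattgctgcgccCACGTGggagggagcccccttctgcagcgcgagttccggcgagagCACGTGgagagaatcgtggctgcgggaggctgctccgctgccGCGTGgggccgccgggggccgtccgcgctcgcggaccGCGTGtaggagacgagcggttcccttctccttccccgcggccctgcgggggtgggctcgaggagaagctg
PDK1 (chr2:172555840-172556089, plus strand): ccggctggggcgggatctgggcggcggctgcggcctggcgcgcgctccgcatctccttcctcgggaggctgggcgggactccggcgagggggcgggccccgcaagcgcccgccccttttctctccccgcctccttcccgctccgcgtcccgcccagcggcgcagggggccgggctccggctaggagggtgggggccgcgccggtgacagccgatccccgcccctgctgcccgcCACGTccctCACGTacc
DDIT4 (chr10:72273674-72273923, plus strand): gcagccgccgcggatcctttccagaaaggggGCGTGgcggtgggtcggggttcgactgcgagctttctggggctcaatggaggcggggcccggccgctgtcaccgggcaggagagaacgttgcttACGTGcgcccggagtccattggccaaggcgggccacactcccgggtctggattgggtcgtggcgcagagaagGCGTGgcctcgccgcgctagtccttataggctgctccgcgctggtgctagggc
BHLHE40 (chr3:4979187-4979436, plus strand): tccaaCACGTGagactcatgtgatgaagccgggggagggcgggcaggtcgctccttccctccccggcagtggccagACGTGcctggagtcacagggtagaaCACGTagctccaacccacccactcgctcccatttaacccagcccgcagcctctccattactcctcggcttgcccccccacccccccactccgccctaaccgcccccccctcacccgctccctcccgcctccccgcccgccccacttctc
LDHA (chr11:18394313-18394562, plus strand): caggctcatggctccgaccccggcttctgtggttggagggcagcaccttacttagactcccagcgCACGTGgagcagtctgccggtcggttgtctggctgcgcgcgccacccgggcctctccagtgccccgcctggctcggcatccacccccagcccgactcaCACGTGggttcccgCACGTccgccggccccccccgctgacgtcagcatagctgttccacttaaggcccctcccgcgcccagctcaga
Matches were counted in windows of 300 bases, 250 before the start and 50 after it, on both strands, and the palindrome CACGTG counts as a pair of ACGTG matches. Of the 42 genes, 38 had at least 1 window, and BNIP3L, NDRG1, SLC2A3 and VHL had none in the table used. ACGTG was in a window of 23 of the 38 genes (60.5%), and in 28.5% of all protein-coding genes with a window. GCGTG was in 24 of the 38 genes (63.2%), against 50.4% of protein-coding genes. Counted per window, since genes with several starts have more chances, ACGTG was in 39.7% of the 68 windows of these genes and in 23% of windows of protein-coding genes, and GCGTG in 44.1% and 43%. Within the set, ACGTG was in 6 of 9 genes called higher, 3 of 6 called lower and 8 of 15 that did not pass. The motif therefore stood before genes of all 3 outcomes. LDHA, with 5 matches to ACGTG in its printed stretch, and BHLHE40, with 4, are examples from outside the rising genes. These matches describe the letters in a window and not binding, which was not measured.

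Among the subunits and sensors of HIF, the 3 subunits measured lower in the knockdown arrays, with EPAS1 alone passing, while EGLN3 and VHL were higher. EPAS1, encoding HIF-2α, read 1059 and 966 in control arrays and 717 and 706 in knockdown arrays. Its log2 difference was -0.50 ± 0.083 (adjusted p = 0.0112), and neither knockdown array came near the control range. HIF1A, encoding HIF-1α, read 3223 and 3488 in control arrays and 2712 and 2847 in knockdown arrays. The arrays of HIF1A also did not overlap, but its log2 difference of -0.27 ± 0.081 did not pass (adjusted p = 0.0612). ARNT, the shared partner, read 521 and 504 against 424 and 467, with a log2 difference of -0.20 ± 0.091 that did not pass (adjusted p = 0.175). After median centring of the arrays the log2 differences were -0.40 for EPAS1, which still passed, -0.17 for HIF1A and -0.10 for ARNT. EGLN3, the prolyl hydroxylase PHD3 and itself a HIF target, read 110.1 and 126 in control arrays and 213 and 234 in knockdown arrays. Its log2 difference was 0.84 ± 0.12 (adjusted p = 0.00750), a rise in both knockdown arrays from a dim control level. VHL, the recognition subunit of the ligase that degrades HIF-α, read 603 and 628 in control arrays and 741 and 773 in knockdown arrays. The log2 difference of VHL was 0.29 ± 0.080 (adjusted p = 0.0475), the called gene nearest to the threshold. EGLN1, the main prolyl hydroxylase in most cells, was read only at the exon level. The median of its probesets was 529.9 and 556 in control arrays and 500.1 and 461 in knockdown arrays, and its log2 difference of -0.17 ± 0.12 did not pass (adjusted p = 0.471). Without knockdown 2 the adjusted p was 0.0515 for EGLN3, 0.0726 for EPAS1 and 0.298 for VHL. EPAS1 also missed the threshold without knockdown 1 (0.0586), and VHL missed it without each of the 4 arrays in turn (0.0625 to 0.298).

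The HIF targets outside glycolysis split into 3 called higher and 4 called lower of 10 tested, with a median log2 difference of 0.07. NDRG1, a stress-responsive gene often used as a marker of hypoxia, read 1118 and 1203 in control arrays and 3723 and 3625 in knockdown arrays. Its log2 difference of 1.65 ± 0.077, a 3.14-fold rise, was the largest among the 33 genes tested (adjusted p = 0.000273). BNIP3, a mitophagy receptor of the outer mitochondrial membrane, read 1425 and 1350.4 in control arrays and 2489 and 3229.7 in knockdown arrays. BNIP3 rose 2.03-fold (log2 difference 1.02 ± 0.13, adjusted p = 0.00519), and its knockdown arrays differed more from each other than its control arrays did. KDM3A, a histone H3 lysine demethylase, read 355 and 394 in control arrays and 593 and 622 in knockdown arrays. The rise of KDM3A was 0.68 ± 0.093 on the log2 scale (adjusted p = 0.00655), with no overlap between groups. NDRG1 and BNIP3 kept their calls under each of 16 alternative settings, and KDM3A lost its call in 1, without knockdown 2 (log2 difference 0.64). For BNIP3 the gene-level values and the exon-level medians are the same 4 values, those of 1 probeset. Its centred median (log2 difference 0.79 ± 0.071), taken over all its tested probesets, is the only setting not made from that probeset alone.

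The falls among HIF targets were smaller. DDIT4, which restrains mTORC1 signalling under stress, read 1252 and 1380.4 in control arrays and 903 and 976 in knockdown arrays, a log2 difference of -0.48 ± 0.088 (adjusted p = 0.0150). BHLHE40, a transcriptional repressor also tied to the circadian clock, read 493 and 459 in control arrays and 354 and 374 in knockdown arrays, a log2 difference of -0.37 ± 0.091 (adjusted p = 0.0345). ADM, encoding the vasodilator peptide adrenomedullin, read 2966 and 3323 in control arrays and 2531 and 2409 in knockdown arrays, a log2 difference of -0.34 ± 0.087 (adjusted p = 0.0377). For these 3 genes each control array stood above each knockdown array. ERO1A, an oxidase for disulfide bond formation in the endoplasmic reticulum, read 2571 and 2702 in control arrays and 2168 and 2045.5 in knockdown arrays, a log2 difference of -0.32 ± 0.077 (adjusted p = 0.0326). All 4 lost their calls without knockdown 1 (adjusted p from 0.0851 for DDIT4 to 0.211 for BHLHE40) and without knockdown 2 (0.0543 for DDIT4 to 0.200 for ERO1A). BHLHE40 also lost its call without control 1 (0.0830), and ADM (0.0977) and ERO1A (0.0821) without control 2, and after median centring BHLHE40, ADM and ERO1A no longer passed (0.0851, 0.0812 and 0.104).

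The 3 other HIF targets that were tested did not pass. BNIP3L, a relative of BNIP3 with a related role in mitophagy, read 1778 and 1675 against 2029.95 and 1943 (log2 difference 0.20 ± 0.077, adjusted p = 0.117). ANGPTL4, an inhibitor of lipoprotein lipase, was dim at 103.02 and 102.6 against 110.3 and 129.6 (log2 difference 0.19 ± 0.13, adjusted p = 0.351). MXI1, a partner of MAX that opposes MYC, read 283 and 288 against 287 and 261, with overlapping groups. Of the carbonic anhydrases that buffer the acid made by glycolysis, CA12 read 90.6 to 100.4 over the 4 arrays at the gene level. CA9, a classical readout of HIF-1 activity, had 8 of its 13 probesets above the filter and an exon-level median of 124 and 118 in control arrays and 103 and 127 in knockdown arrays. ANKRD37, a small HIF-1 target, had an exon-level median of 158 and 156 against 197 and 174 (log2 difference 0.22, adjusted p = 0.485). CA9, CA12 and ANKRD37 thus stayed dim, and none of them passed on exon-level medians, though 1 of the 8 tested probesets of CA9 was called lower.

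**Figure D2:**
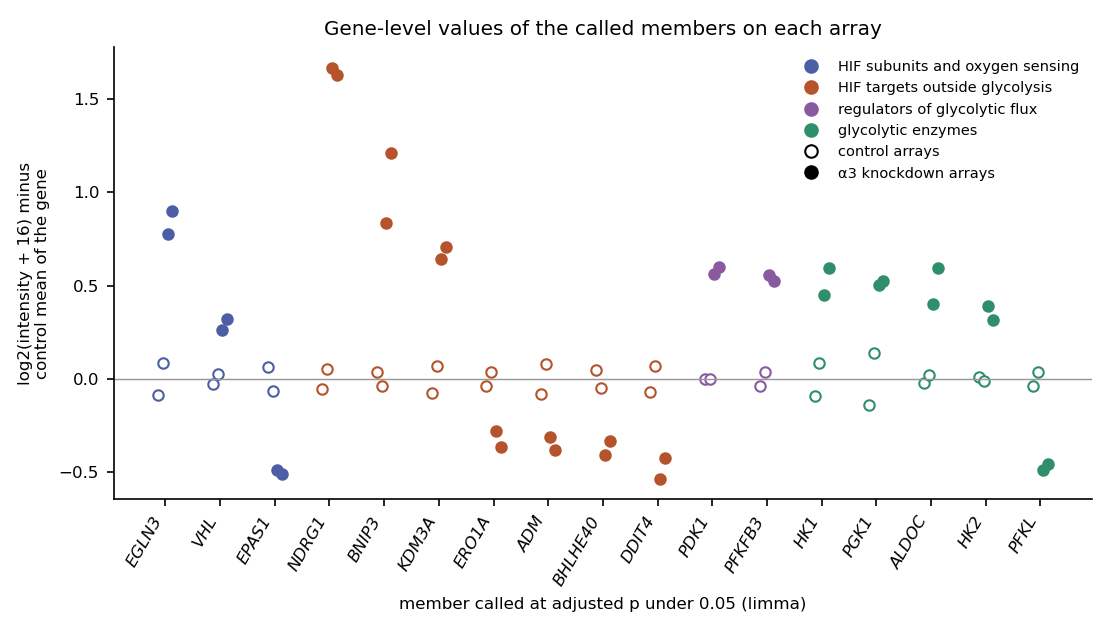
Gene-level log2(intensity + 16) of the 17 called genes on each of the 4 arrays, as the difference from the control mean of the gene, with open points for control and filled points for knockdown arrays. All 17 genes separate the groups, and the 2 knockdown arrays lie farther apart for BNIP3 (2489 and 3229.7 in intensity) than for NDRG1 (3723 and 3625).

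Of the transporters, only SLC2A1 had a gene-level cluster of its own. SLC2A1, the glucose transporter GLUT1, read 3787 and 3416 in control arrays and 4207 and 4091 in knockdown arrays. The knockdown arrays were both above the controls, but the log2 difference of 0.21 ± 0.084 did not pass (adjusted p = 0.138). SLC2A3, the high-affinity glucose transporter GLUT3, had 10 probesets annotated to it alone and 12 shared with another gene, which were left out. Whether the 10 also read that other gene in part was not tested. Over its 8 tested probesets the median intensity was 2007 and 2300.3 in control arrays and 3500.5 and 3629 in knockdown arrays. SLC2A3 rose by this measure, with a log2 difference of 0.73 ± 0.10 (adjusted p = 0.00878), and 4 of its 8 probesets were called higher on their own. SLC16A3, the lactate exporter MCT4, had a median of 1753 and 1567 in control arrays and 2449 and 1953 in knockdown arrays. All 9 of its probesets were higher in the knockdown and 2 of them passed singly, but the difference of the medians did not pass (log2 difference 0.40 ± 0.13, adjusted p = 0.115).

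A median of intensities can move from one probeset to the next between arrays, so a further summary was added after the exon-level medians had been seen, in which each probeset was first centred on its own mean over the 4 arrays. On these centred medians 12 of the 42 genes were called higher and 5 lower, where 3.94% of all 15106 genes were called higher and 11% lower. On the medians of intensities 7 were called higher and 1 lower, where the shares of all genes were 2.12% and 5.75%. SLC16A3 was called higher on the centred medians (log2 difference 0.53 ± 0.068, adjusted p = 0.00669), as was SLC2A3 (0.58 ± 0.064, adjusted p = 0.00471). With each array in turn left out of the model, the log2 difference ran from 0.54 to 0.61 for SLC2A3 and from 0.49 to 0.56 for SLC16A3. In all such fits on centred medians the left-out array still entered the filter and the centring of probesets. Of the 11 genes called higher at the gene level, 10 were also called higher on the centred medians, and of the 6 called lower, 5. The exceptions were VHL (adjusted p = 0.0594) and BHLHE40 (0.0626). Signs agreed between the gene level and the centred medians for 32 of 33 genes, PFKFB4 lying at 0 on both. The same 4 arrays underlie each summary, so agreement between them is no further replication. Leaving out 1 array left 9 higher and 5 lower without control 1, 11 and 1 without control 2, 10 and 0 without knockdown 1, and 6 and 0 without knockdown 2.

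Regulators of glycolytic flux showed 2 of 3 genes called higher. PDK1, the kinase that switches off pyruvate dehydrogenase and so keeps pyruvate out of the mitochondria, read 364 and 363 in control arrays and 545 and 560.2 in knockdown arrays. PDK1 rose by a log2 difference of 0.58 ± 0.083 (adjusted p = 0.00731), and replicates lay close together in both groups. PFKFB3, which makes fructose 2,6-bisphosphate, the strongest activator of phosphofructokinase, read 412 and 435 in control arrays and 631 and 615 in knockdown arrays. The log2 difference of PFKFB3 was 0.54 ± 0.083 (adjusted p = 0.00910), again with no overlap. PFKFB4, a second enzyme of that family, read 221 and 192 against 203 and 208, and its groups overlapped. On the medians of intensities of exon-level probesets neither PDK1 (adjusted p = 0.0761) nor PFKFB3 (0.427) passed, whereas both passed on the centred medians (0.0102 and 0.0181). Without knockdown 2 neither passed (0.0664 and 0.0640), and without knockdown 1 PDK1 passed (0.0486) and PFKFB3 did not (0.0677).

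Glycolytic enzymes did not move as a block: of 14 tested, 4 were called higher, 1 lower and 9 did not pass, with a median log2 difference of -0.01. At the first step, where hexokinase traps glucose in the cell, both isoenzymes rose. HK1, the widely expressed form, read 808 and 915 in control arrays and 1182 and 1306 in knockdown arrays, a log2 difference of 0.52 ± 0.097 (adjusted p = 0.0154). HK2, the form induced in many tumours, read 924 and 912 in control arrays and 1207 and 1148 in knockdown arrays, a log2 difference of 0.35 ± 0.075 (adjusted p = 0.0233). Each knockdown array was above each control array for both hexokinases. GPI, which converts glucose 6-phosphate to fructose 6-phosphate, read 3552 and 3618 against 3208 and 3268, a log2 difference of -0.15 that did not pass (adjusted p = 0.205).

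Phosphofructokinase, the committed step, went the other way in its liver-type subunit. PFKL read 963 and 1017 in control arrays and 702 and 717 in knockdown arrays, a log2 difference of -0.47 ± 0.078 (adjusted p = 0.0110). PFKM, the muscle-type subunit, read 1112 and 1252 in control arrays and 961 and 946 in knockdown arrays, and its log2 difference of -0.30 ± 0.087 just missed the threshold (adjusted p = 0.0552). PFKP, the platelet-type subunit, read 1818 and 1898.5 against 1672 and 1726 (log2 difference -0.13, adjusted p = 0.270). At the gene level all 3 phosphofructokinase genes read lower in each knockdown array than in each control array, with PFKL alone passing, and the exon-level medians of PFKP overlapped between groups.

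Further down the pathway, the rises were in 2 enzymes. ALDOC, a brain-enriched aldolase and HIF target, read 311 and 321 in control arrays and 422 and 485 in knockdown arrays, a log2 difference of 0.50 ± 0.10 (adjusted p = 0.0207). ALDOA, the main aldolase of most proliferating cells, read 3720.1 and 3905 against 3688 and 3699.6, and its log2 difference of -0.045 did not pass (adjusted p = 0.724). PGK1, which makes the first ATP of the pathway, read 6372 and 7756 in control arrays and 9963 and 10107 in knockdown arrays. The log2 difference of PGK1 was 0.51 ± 0.11 (adjusted p = 0.0246), and its controls differed from each other more than its knockdown arrays did.

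The remaining enzymes of the lower pathway did not pass. ENO1 read 12791 to 13486 in control arrays and 13129 to 14080 in knockdown arrays, ENO2 947 to 1002 and 998 to 1004, and PKM, the pyruvate kinase gene, 7539 to 7668 and 7375 to 7442. LDHA, the lactate dehydrogenase subunit that favours lactate production and a classical HIF-1 target, read 12769 and 11965 against 12749 and 12332, with overlapping groups (log2 difference 0.02 ± 0.086, adjusted p = 0.894). The exon-level median of LDHA read 7741 and 7959 against 8954 and 9905, without overlap, and 13 of its 15 probesets were higher in the knockdown, but it did not pass (log2 difference 0.26, adjusted p = 0.106). LDHB, the other main subunit, read 5825 and 7098 against 5397 and 5863 (log2 difference -0.19, adjusted p = 0.286). Among enzymes read only by probesets, GAPDH had a median of 12614 and 12301 in control arrays and 13196 and 14407 in knockdown arrays, yet 9 of its 13 probesets were lower in the knockdown and its centred median gave -0.05 (adjusted p = 0.584). PGAM1 had a median of 4034 and 4191 against 5214 and 4975, all 5 of its probesets were higher, and it did not pass on either summary (adjusted p = 0.0695 and 0.0806). TPI1 had a median of 6307 and 6748 against 6219 and 5921 and did not pass (adjusted p = 0.524). GAPDH, PGAM1, TPI1, ENO1, LDHA, PGK1 and ALDOA have closely similar sequences elsewhere in the genome, so probes may read more than 1 copy and their values are uncertain to that extent.

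Several of the enzyme calls did not hold with 1 array fewer, in fits with 1 residual degree of freedom. The log2 difference of PGK1 was 0.52 without knockdown 1 and 0.50 without knockdown 2, and that of HK1 0.59 and 0.45. Without knockdown 2 the adjusted p was 0.0971 for HK1, 0.112 for HK2, 0.169 for ALDOC, 0.0866 for PGK1 and 0.0689 for PFKL. Without knockdown 1 HK1 passed (0.0408), while HK2 (0.159), ALDOC (0.0548), PGK1 (0.0696) and PFKL (0.0711) did not. ALDOC (0.0530) and PGK1 (0.0724) also missed the threshold without control 1, and HK2 (0.0506) without control 2, whereas PFKM passed without control 1 (0.0338).

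Set side by side, the median log2 difference was 0.54 for the 3 flux regulators, 0.07 for the 10 HIF targets, -0.01 for the 14 enzymes and -0.20 for the 5 subunits and sensors, beside -0.06 for all clusters. The median of the enzymes was lower than that of the HIF targets by a log2 value of -0.0755, and the sign of that difference turned with no filter (0.0191), with a stricter filter (0.052), and on exon-level medians (0.0514) and centred medians (0.0041). Enzymes and the other HIF targets therefore cannot be ordered by their medians. Against the subunits and sensors the enzymes lay 0.19 higher. That difference kept its sign under each alternative (0.10 to 0.24), several of which leave the value as it is. At the gene level the median of the 5 subunits and sensors is the value of ARNT, which did not pass. That group ran from -0.50 to 0.84, so its range overlapped that of the enzymes. The HIF targets ran from -0.48 to 1.65 and the enzymes from -0.47 to 0.52. The higher upper end of the targets rests on NDRG1 (1.65) and BNIP3 (1.02), with KDM3A next at 0.68. These are gene-level values, and that of PGK1 (0.51) comes from 1 probeset. On centred medians PGK1 was at 0.71 and KDM3A at 0.67. No test was made over the genes.

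Exon-level probesets showed whether the change of a gene ran along its transcript. Of the 633 probesets tested, 69 were called higher and 7 lower, in 19 genes, where 1.33% of all 172397 probesets were called higher and 3.25% lower. NDRG1 had 18 of 18 probesets called higher, with log2 differences from 1.07 to 1.95. PGK1 had 11 of 13 called higher, BNIP3 7 of 9, KDM3A 11 of 32, SLC2A3 4 of 8 and PDK1 4 of 19. In the 11 genes called higher at the gene level, 182 of 186 probesets (97.8%) were higher in the knockdown, and in the 6 genes called lower, 88 of 90 (97.8%) were lower, where 43.7% of all tested probesets were higher and 56.3% lower. The probesets of a gene share its RNA and were partly the basis of its gene-level value, so these shares are a description. All 24 probesets of PFKM and all 27 of ARNT read lower in the knockdown, although neither gene passed, and all 14 of SLC2A1 read higher. Without 1 array the probesets called higher and lower numbered 24 and 1 (control 1), 49 and 2 (control 2), 44 and 3 (knockdown 1) and 30 and 1 (knockdown 2), and with no filter on dim probesets 5 and 0.

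**Figure D3:**
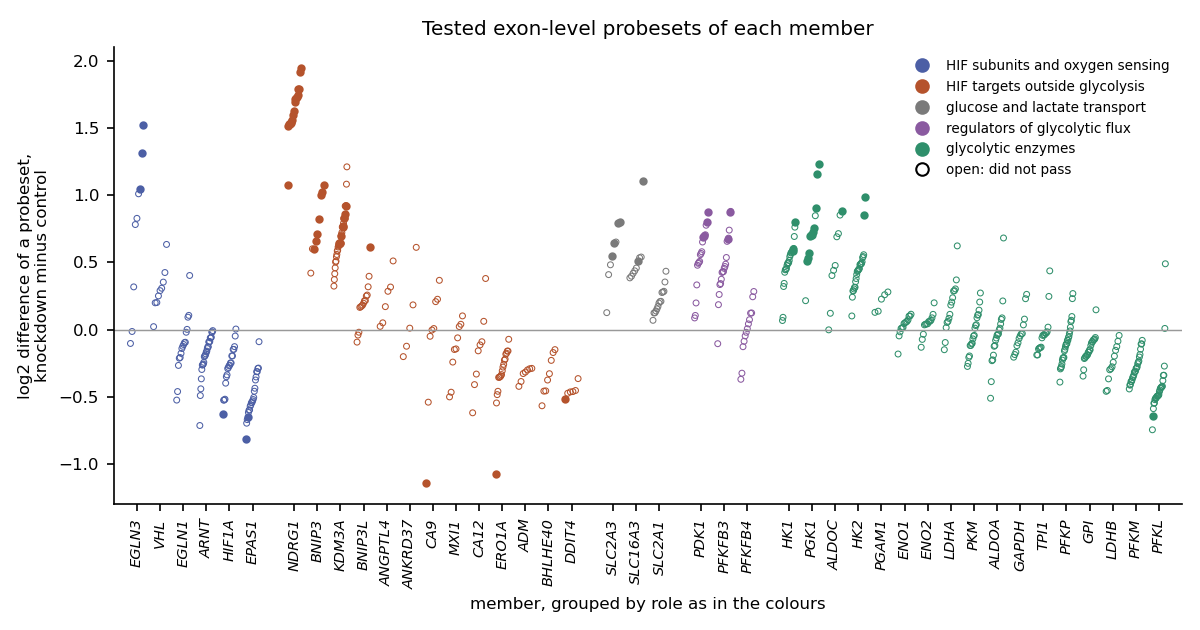
Log2 difference (knockdown minus control) of each of the 633 tested exon-level probesets, by gene and role, with filled points for adjusted p under 0.05. NDRG1 has 18 of 18 probesets called higher between 1.07 and 1.95, while PKM, GAPDH and TPI1 have probesets on both sides of 0 with none called.

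Within some genes a single probeset stood apart. A probeset of ERO1A fell from 1217 and 1455 to 626 and 625 (log2 difference -1.07 ± 0.15, adjusted p = 0.00847), while the other 18 probesets of that gene did not pass. A probeset of CA9 fell from 227 and 219 to 88.0 and 96.5 (log2 difference -1.14 ± 0.24, adjusted p = 0.0355) in a gene whose centred median did not pass. In EGLN3, 7 of 9 probesets were higher, by up to 1.52, while a bright probeset read 933 and 932 in control arrays and 923 and 814 in knockdown arrays (log2 difference -0.10). Setting each probeset against its neighbours, by the mean over the rest of the gene, tests whether such departures exceed the spread between arrays. With limma, 0 of the 633 probesets passed this test of exon usage, also with the median of the rest in place of the mean, where 0.0515% of all 155391 probesets in genes with at least 3 tested probesets did. At an unadjusted p under 0.05, 33 of the 633 passed (5.21%), near the 5.83% of all probesets. The bright EGLN3 probeset had the smallest adjusted p (0.102), followed by the ERO1A probeset (0.167) and the CA9 probeset (0.229). Without knockdown 2, 1 probeset of the 633 passed.

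The gene-level summary of 3 genes was that of a single probeset. For TPI1, BNIP3 and PGK1 the 4 gene-level values equalled those of 1 of the gene's probesets, as they did for 4737 of the 22011 clusters (21.5%). For TPI1 that probeset read 3.68 to 23.2, while its other 16 probesets read 422 to 11390, so the dim gene-level value of TPI1 is that of its dimmest probeset. For BNIP3 the shared probeset gave a log2 difference of 1.02, within the range of 0.42 to 1.08 over its 9 probesets, and the centred median was 0.79 ± 0.071 (adjusted p = 0.00270). For PGK1 the shared probeset gave 0.51, below the centred median of 0.71 ± 0.090 (adjusted p = 0.00651) over its 13 probesets. BNIP3 and PGK1 were thus called higher both on that probeset and on the centred median of all their probesets.

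**Figure D4:**
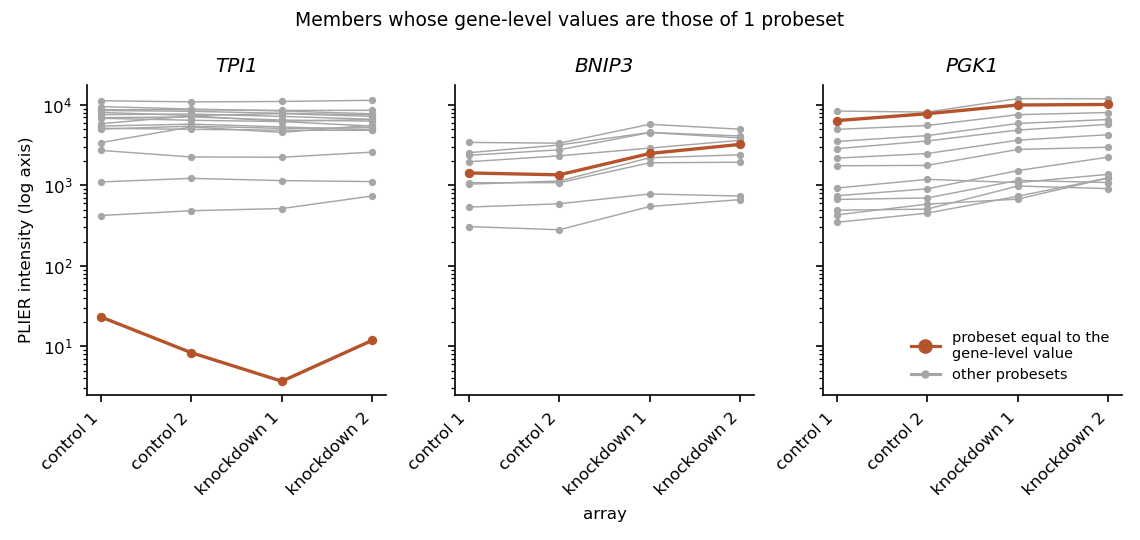
PLIER intensity (log axis) of every exon-level probeset of TPI1, BNIP3 and PGK1 on the 4 arrays, with the probeset whose values equal the gene-level value in colour. For TPI1 that probeset reads 3.68 to 23.2 while the other 16 read 422 to 11390, whereas for BNIP3 and PGK1 it follows the other probesets upward in the knockdown.

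Other genes of the same pathways, 91 in all, were listed by their known role with earlier results of these data known, and 61 of them were tested. Of these, 12 were called higher (19.7%) and 13 lower (21.3%), beside 5.99% and 15.3% of all clusters. The shares describe the lists and are no test of them. On exon-level medians 6 of 81 were called higher (7.41%) and 9 lower (11.1%), where 2.12% and 5.75% of all genes were. Other HIF targets had 9 of 22 called higher (40.9%) and 3 lower (13.6%, near the share of all clusters), with a median log2 difference of 0.29. On exon-level medians 6 of 24 were higher (25%) and 3 lower (12.5%). PLOD2, a lysyl hydroxylase of collagen, read 1516 and 1541 in control arrays and 2897 and 2897 in knockdown arrays (log2 difference 0.92 ± 0.071, adjusted p = 0.00144). TMEM45A, a membrane protein induced by hypoxia, rose from 84.0 and 94.5 to 197 and 244 (log2 difference 1.16 ± 0.14, adjusted p = 0.00489). Its control mean of 89.2 lay below all 4 arrays of CA12 (90.6 to 100.4), a cluster left out as dim. TMEM45A, counted among the 9, thus entered the test only through its knockdown values. RORA, a nuclear receptor, rose by 1.03 ± 0.14 (adjusted p = 0.00623) and INSIG2, a regulator of cholesterol synthesis, by 0.55 ± 0.076 (adjusted p = 0.00655). IGFBP3, an insulin-like growth factor binding protein, fell from 771 and 799 to 517 and 479 (log2 difference -0.64 ± 0.084, adjusted p = 0.00583). The other 2 falls were LOX (log2 difference -1.35 ± 0.087) and VEGFA (-0.90 ± 0.073), a lysyl oxidase that crosslinks collagen and the main angiogenic factor.

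Other components of the HIF pathway had 3 of 11 called lower (27.3%), and the other 8 did not pass. On exon-level medians 0 of 16 were higher and 3 lower (18.8%). EGLN2, the third prolyl hydroxylase, read 384 and 413 in control arrays and 259.9 and 289.7 in knockdown arrays (log2 difference -0.51 ± 0.10, adjusted p = 0.0184). CITED2, which competes with HIF for the coactivator p300, fell by 0.34 ± 0.087 on the log2 scale (adjusted p = 0.0386), and OS9, a lectin of protein quality control in the endoplasmic reticulum, by 0.31 ± 0.077 (adjusted p = 0.0371). Of the prolyl hydroxylase genes, then, EGLN3 was higher and EGLN2 lower, and EGLN1 did not pass. Other carbon metabolism genes had 3 of 28 called higher (10.7%) and 7 lower (25%). On exon-level medians 0 of 41 were higher and 3 lower (7.32%), where 5.75% of all genes were lower. PYGL, the liver glycogen phosphorylase, rose from 1803 and 1895 to 2444 and 2372 (log2 difference 0.38 ± 0.074, adjusted p = 0.0181), and PDP1, a phosphatase that reverses the action of PDK1, and PGM1, a phosphoglucomutase, were also higher (log2 differences 0.35 and 0.32). PGM2, a phosphopentomutase, fell from 1138 and 1178 to 710.3 and 693 (log2 difference -0.71 ± 0.075, adjusted p = 0.00357). GBE1, the glycogen branching enzyme, PGLS, of the pentose phosphate pathway, and PDK3, another pyruvate dehydrogenase kinase, fell by 0.48, 0.59 and 0.79 on the log2 scale. PDK1 and PDK3, kinases of the same enzyme complex, were therefore called in opposite directions at the gene level. PDK3 fell from 174 and 213 in control arrays to a dim 105 and 104 in knockdown arrays. PDK1 did not pass on exon-level medians (adjusted p = 0.0761) but did on centred medians (0.0102). These lists too lost calls without single arrays, with 6 higher and 6 lower left without knockdown 1 and 3 and 4 without knockdown 2.

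Among the settings that kept all 4 arrays, all 17 calls stayed with another offset and with a robust variance model, 16 after quantile normalization, 14 after median centring, 14 without the intensity trend, 12 with no filter, 15 on centred exon-level medians and 7 on medians of exon-level intensities. Leaving out 1 array kept 13 calls without either control, 6 without knockdown 1 and 2 without knockdown 2. Other filters, variance models and the replicate block leave the log2 difference of a gene as it is. Where groups do not overlap, another offset or 1 array fewer cannot turn a sign either. Under quantile normalization, median centring and both exon-level summaries, which could turn it, none of the 17 changed sign. NDRG1 and BNIP3 kept their calls in all 16 alternatives, BNIP3 on 1 and the same probeset in all but the centred medians. VHL and BHLHE40 lost their calls most often, in 8 each.

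**Figure D5:**
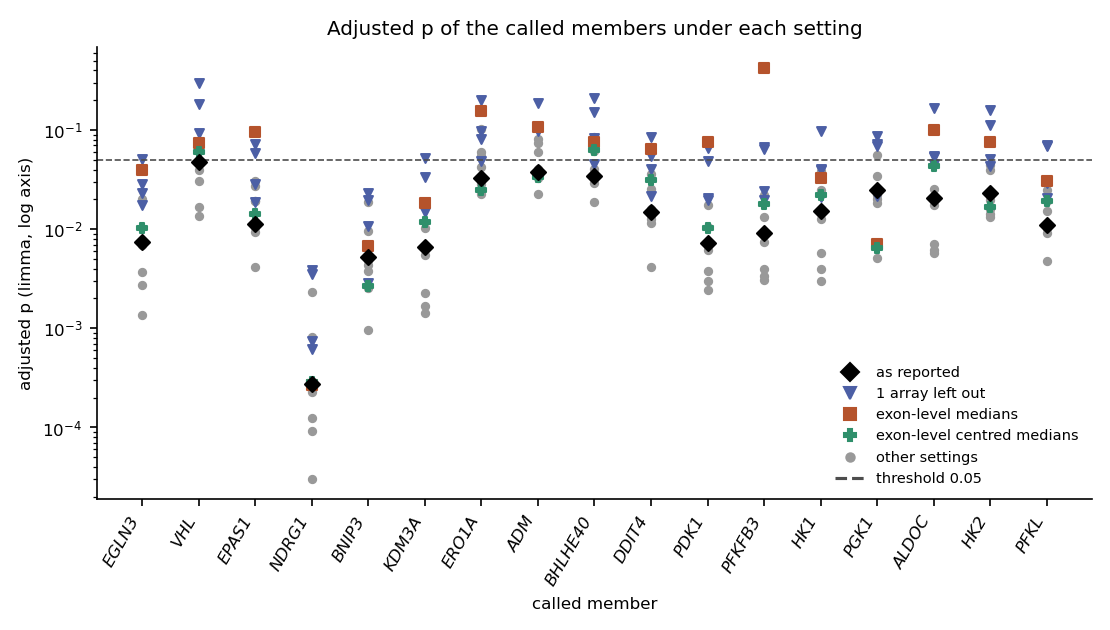
Limma adjusted p (log axis) of the 17 called genes as reported (black diamonds) and under each alternative setting, with the threshold of 0.05 as a dashed line. NDRG1 and BNIP3 stay under the threshold throughout, and for most other genes the points above it are fits without 1 array or exon-level medians.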

How the data were processed

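Intensities were deposited as linear PLIER summaries made in Affymetrix Expression Console for core genes and core exons, per the labels, and the series text names an Affymetrix exon array tool. How arrays were background-corrected or normalized is not given in the sources used here, and scanner files were not used. Rows were named through the platform annotation and RefSeq gene names, and rows with several symbols were tested but not named. A gene with several clusters was read from its brightest. Intensities were taken as log2(value + 16), features in the lower 40% by mean were left out, and knockdown was set against control with limma 3.58.1 under R 4.3.3. The model held the group alone (2 residual degrees of freedom), eBayes used an intensity trend, and two-sided p-values were adjusted by Benjamini-Hochberg over all features. Exon usage was tested in genes with at least 3 tested probesets. The steps were tested on simulated data. All genes of the set are accounted for, with every array for called genes, HIF subunits and sensors, and up to 4 higher and 4 lower genes with the smallest p are named per further list. The genes, lists and tests were chosen with earlier results of these data known. The deviations of same-numbered arrays from their group means correlated at 0.29, which with 2 pairs does not establish a pairing. The 4 arrays limit the precision of every value. Alternatives were other offsets, filters, variance models and scalings, a block for the replicate number, leaving out each array, and exon-level medians; the centred medians were added after the data were seen.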

Additional observations from a re-analysis of the deposited data

How the results depend on the processing

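Directions held for all 17 called genes under the other scalings and exon-level summaries, the alternatives that could turn them. The number of calls moved with the arrays, the filter, the scaling and the summary. Values below are numbers of features called higher or lower unless stated otherwise, and the cause of each change was not tested beyond what fewer arrays or other tested features imply. Over all clusters, 791 were higher as reported, 485 with no filter, 1354 after quantile normalization and 1586 after median centring. Among the 33 genes, those called lower numbered 6 as reported, 3 with no filter and 3 after median centring, and on exon-level medians 7 were higher and 1 lower. HIF targets called lower numbered 4 as reported, 1 with no filter, 2 without the intensity trend, 1 after median centring and 0 on exon-level medians. HIF subunits and sensors called higher numbered 2 as reported and 1 with no filter, with the lower 60% left out, without the trend, on exon-level medians and on centred medians, and those called lower went from 1 to 0 on exon-level medians. Enzymes called lower numbered 1 as reported and 2 with the lower 60% left out, and enzymes called higher went from 4 to 2 on exon-level medians. Other pathway genes numbered 12 higher and 13 lower as reported, and 7 and 8 with no filter. Probesets of the 42 genes numbered 69 higher and 7 lower as reported, 5 and 0 with no filter and 19 and 1 without the trend, and those called lower numbered 4 after quantile normalization and 2 after median centring. The median log2 difference of enzymes minus that of HIF targets was -0.0755 as reported, -0.0536 with an offset of 64, -0.14 after quantile normalization, and turned positive with no filter (0.0191), with the lower 60% left out (0.052), on exon-level medians (0.0514) and on centred medians (0.0041). Enzymes minus subunits and sensors was 0.19, and 0.10 after quantile normalization. With 1 array left out, the ranges were 166 to 909 clusters higher and 632 to 1906 lower, 2 to 9 genes higher and 0 to 6 lower, 0 to 3 enzymes higher and 0 to 2 lower, 0 to 3 HIF targets lower, 0 to 1 subunit or sensor higher and 0 to 1 lower, 3 to 9 other pathway genes higher and 4 to 11 lower, 24 to 49 probesets higher and 1 to 3 lower, and 0 to 1 probeset in exon usage, while the median differences ranged from -0.0884 to -0.0409 (enzymes minus HIF targets) and from 0.1136 to 0.2435 (enzymes minus subunits and sensors).

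With the replicate number as a block, 1324 clusters were higher, 2741 were lower, 11 of the 33 genes were higher and 8 lower (HIF1A and PFKM were added), 2 subunits and sensors and 2 enzymes were lower, 160 probesets were higher and 65 lower, and 8 probesets passed in exon usage. The arrays share only a number, so this block is an alternative and not a pairing.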
